A study of Brassica napus with 12 samples.

Results

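Of 60756 gene IDs listed for the ribosome-bound RNA of canola leaves, 9 met a rule for lower values in all 3 selected lines. Each line was compared with the unselected control of the same experiment, and 13162 of the IDs had no count in any library. These 9 IDs were chosen by the values of all 12 libraries. The mean had to reach 2 CPM (the count divided by the library's total count, times 1000000), which 23802 IDs did. Both PEG-1 and both PEG-2 libraries had to lie below both PEG controls, and all 3 EUE epiline libraries below all 3 EUE controls. The group mean of log2(CPM + 0.5) also had to be at least 0.3 lower in each line. Being low in the selected lines is therefore how the IDs were found and not a result, and the differences between each line and its control are given as descriptions.

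The series studied canola (Brassica napus, biennis form) selected for energy efficiency and drought tolerance. Its design text says that the epilines respire less and hold more NAD(P)H. The 5 groups were a PEG control line, the selected epilines PEG-1 and PEG-2 (2 libraries each), an EUE control line and the selected EUE epiline (3 libraries each). All plants were 26 days old, raised on agar for 2 weeks and in soil for 12 days, and given no treatment. Each selected group is a single line, so what is particular to the line and what is shared by such selections cannot be told apart. The libraries are called biological replicates, and the labels do not say whether a library is 1 plant or a pool. The design text speaks of 2 epilines in triplicate, while the sample labels name 3 selected lines. Total counts ran from 36210542 to 42696798 per library, and every count was even.

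Polysomes are messenger RNAs that carry several ribosomes at once, so RNA from a polysome pellet is weighted towards messages that are being translated. A lower value can come from less transcript or from fewer ribosomes on it, and with a whole leaf as the sample, fewer cells of a type and less RNA per cell cannot be told apart. Leaf respiration oxidises sugars, and its electron transport in mitochondria uses NADH. Epilines are lines that were selected repeatedly from genetically uniform material and keep their altered trait. Canola carries the genomes of a pair of ancestral species, Brassica rapa and Brassica oleracea, so most of its genes have close copies whose reads can be hard to assign. The IDs are written as a single number with the prefix ERF, a single number with the prefix ERC, or a joined pair. The file pairs none of them with a gene name, and 0 of 82016 ID parts matched the RefSeq gene table of the species. The 9 IDs therefore have no known role here, no sequence is shown for them, and leaf marker genes could not be looked up.

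Few IDs met the order of libraries in both experiments. Among the 23802 IDs, 1079 (4.53%) had all 4 selected PEG libraries below both controls, and 311 (1.31%) had all 3 EUE epiline libraries below their controls. Both orders were met by 25 IDs (0.105%), which is 2.32% of the first list and 8.04% of the second. A mean difference of -0.3 or lower in each of the 3 lines, whatever the order of the libraries, was reached by 254 IDs (1.07%). The 9 met both conditions. Turned upward, the same rule found 431 IDs. Lower in both PEG lines and higher in the EUE epiline gave 0 IDs, and the opposite pattern gave 1. The number of lowered IDs moved with single libraries. It was 14 without PEG control replicate 1, 31 without PEG control replicate 2, 70 without EUE control replicate 3 and 72 without EUE epiline replicate 1, and over all 12 libraries left out in turn it ran from 6 to 72. When each selected library was compared only with the control library of the same number, a replicate block, 104 IDs were lowered and 747 raised. All 9 were among the 104, which their choice already implies.

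**Figure D1:**
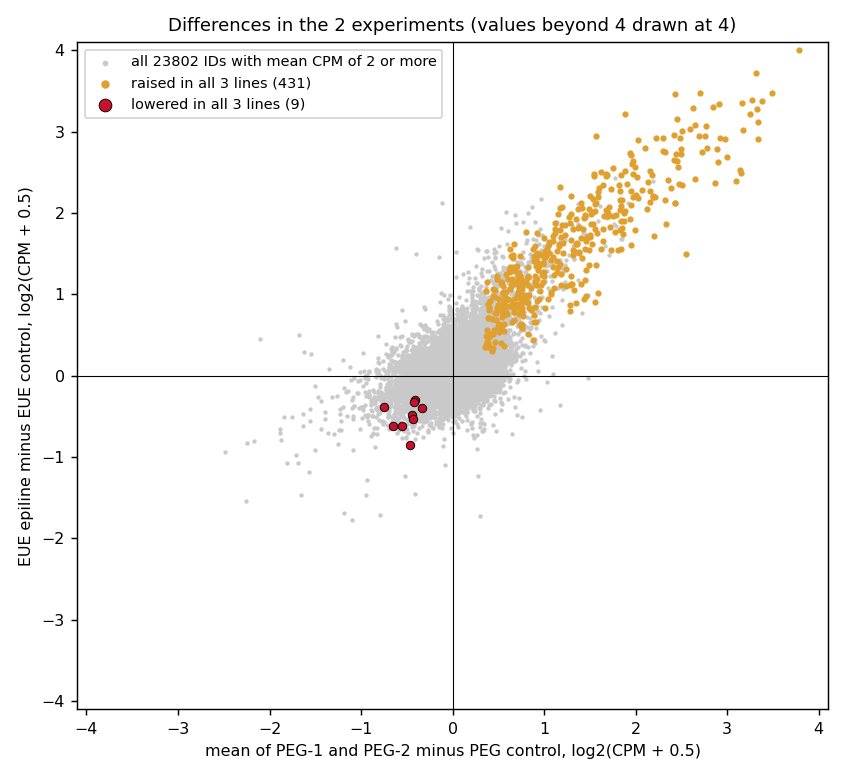
Each point is one of the 23802 IDs that reach 2 CPM, with values beyond 4 drawn at 4; the horizontal axis is the mean difference of the 2 PEG lines from the PEG control and the vertical axis the difference of the EUE epiline from the EUE control, both on the log2(CPM + 0.5) scale. The 9 lowered IDs lie near the origin at the lower left, while the 431 raised IDs reach far into the upper right.

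The differences were small. In PEG-1 they ran from -0.84 to -0.37 on the log2(CPM + 0.5) scale with a median of -0.55, in PEG-2 from -0.66 to -0.30 with a median of -0.35, and in the EUE epiline from -0.86 to -0.30 with a median of -0.48. Over all 23802 IDs the medians were 0.03, 0.02 and 0.03. For the 431 raised IDs the medians were 1.32, 0.92 and 1.47, so the lowered list held smaller differences than the raised list in each line. No lowered ID reached a difference of -1 on this scale in any line, although 186 IDs did so for PEG-1, 53 for PEG-2 and 15 for the EUE epiline. With a pseudocount of 0.1 CPM instead of 0.5, ERF84919 was at -1.06 in the EUE epiline. The difference was largest in PEG-1 for 6 of the 9 and in the EUE epiline for the other 3, and in PEG-2 for 0. PEG-1 and PEG-2 share their control libraries, so their values are not independent of each other.

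**Figure D2:**
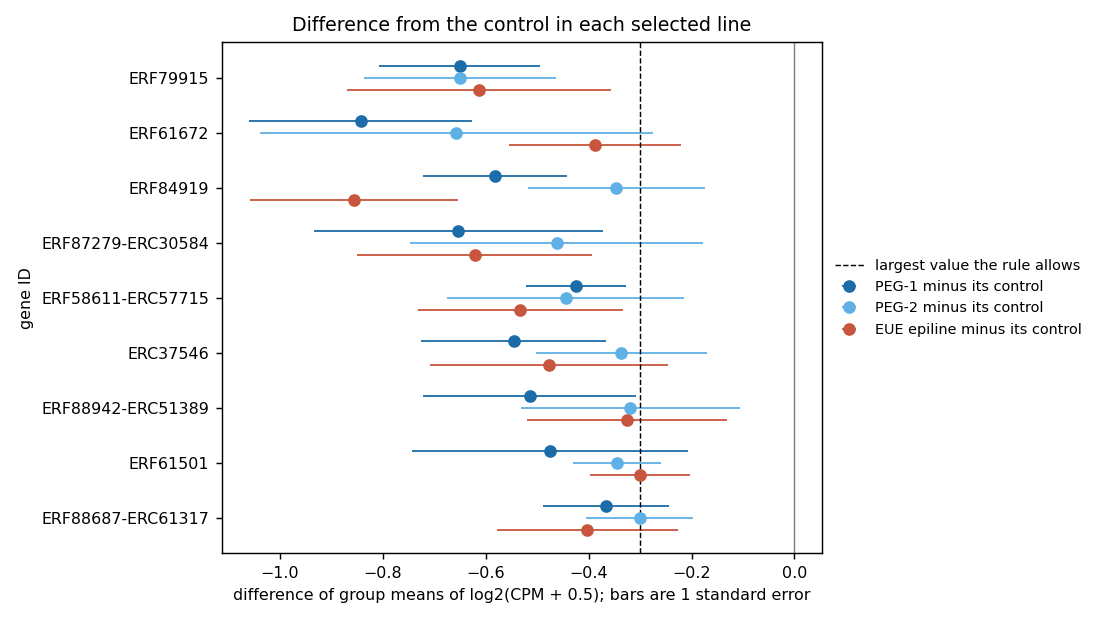
Difference of each selected line from its control for the 9 IDs, as the difference of group means of log2(CPM + 0.5), with 1 standard error from the spread of the libraries (2 per PEG group, 3 per EUE group). The dashed line marks -0.3, the largest value allowed; ERF61501 in the EUE epiline and ERF88687-ERC61317 in PEG-2 sit on it, and ERF79915 has nearly the same value in all 3 lines.

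ERF79915 was the most abundant of the 9, at a mean of 62.7 CPM, above 91.7% of the 23802 IDs. Its levels in the PEG experiment were 80.7 and 65.0 CPM in the control, 46.8 and 45.1 CPM in PEG-1, and 49.5 and 42.8 CPM in PEG-2. In the EUE experiment they were 88.2, 71.6 and 94.0 CPM in the control and 55.9, 71.4 and 41.1 CPM in the EUE epiline. Both PEG controls stood clear of PEG-1 and PEG-2, whereas EUE epiline replicate 2 all but touched EUE control replicate 2. The control means were 72.9 ± 11.1 CPM (SD, n = 2) and 84.6 ± 11.6 CPM (SD, n = 3). The log2 difference was -0.65 ± 0.16 (standard error) for PEG-1, -0.65 ± 0.19 for PEG-2 and -0.61 ± 0.26 for the EUE epiline, which is 1.57-fold, 1.57-fold and 1.53-fold lower. Of the 9, it alone met the rule whichever of the 12 libraries was left out. Leaving a library out cannot break the order for a chosen ID, so this mainly restates its distance from the limits.

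ERF61672, at a mean of 18.9 CPM, had the largest difference in PEG-1. It stood at 32.7 and 24.1 CPM in the PEG control, 15.3 and 15.6 CPM in PEG-1, and 22.1 and 14.1 CPM in PEG-2. In the EUE control it was at 19.2, 22.7 and 16.4 CPM, and in the EUE epiline at 16.2, 15.2 and 12.7 CPM. The PEG-1 libraries lay together and well below the control, but the PEG-2 libraries were far apart. The log2 difference was -0.84 ± 0.22 (standard error) for PEG-1, -0.66 ± 0.38 for PEG-2 and -0.39 ± 0.17 for the EUE epiline.

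ERF84919 was the scarcest, at a mean of 3.39 CPM, and had the largest difference in the EUE epiline. In the EUE experiment its levels were 2.42, 2.93 and 1.87 CPM in the control and 1.38, 1.04 and 0.880 CPM in the EUE epiline, from counts of 90, 108 and 80 against 52, 42 and 36. In the PEG experiment it was at 5.62 and 6.92 CPM in the control, 4.03 and 3.97 CPM in PEG-1, and 4.44 and 5.19 CPM in PEG-2. The EUE groups did not overlap, as the rule required of all 9, and all EUE libraries lay below all PEG libraries. The log2 difference in the EUE epiline was -0.86 ± 0.20 (standard error). That is 1.81-fold lower on the log2(CPM + 0.5) scale, where the added 0.5 CPM shrinks differences at such low levels. Group means were 2.41 CPM in the EUE control and 1.10 CPM in the EUE epiline, and edgeR gave a 2.26-fold lower value. Differences in the PEG lines were -0.58 ± 0.14 for PEG-1 and -0.35 ± 0.17 for PEG-2. With a pseudocount of 2 CPM instead of 0.5 the EUE epiline difference was -0.50, and with 0.1 CPM it was -1.06. The ID met the rule in 5 of 8 variants with another scaling, minimum level, minimum difference, pseudocount or order. A minimum difference of 1, which kept 0 of the 9, is not counted. Looser minimums and the replicate block keep a chosen ID by construction.

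ERF87279-ERC30584, a joined ID with a mean of 14.5 CPM, differed from the control by -0.65 ± 0.28 (standard error) for PEG-1, by -0.46 ± 0.28 for PEG-2 and by -0.62 ± 0.23 for the EUE epiline. It was at 17.6 and 12.4 CPM in the PEG control, 10.2 and 8.31 CPM in PEG-1, and 11.8 and 9.50 CPM in PEG-2. In the EUE control it was at 16.2, 22.4 and 24.6 CPM, and in the EUE epiline at 15.7, 13.6 and 11.0 CPM. The nearest libraries of the 2 sides were close in both experiments.

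ERF58611-ERC57715, a joined ID with a mean of 5.76 CPM, had differences of similar size in the 3 lines, namely -0.42 ± 0.10 (standard error) for PEG-1, -0.45 ± 0.23 for PEG-2 and -0.53 ± 0.20 for the EUE epiline. It was at 6.45 and 5.65 CPM in the PEG control, 4.52 and 4.24 CPM in PEG-1, and 5.07 and 3.65 CPM in PEG-2. In the EUE control it was at 6.40, 9.56 and 7.78 CPM, and in the EUE epiline at 5.79, 5.72 and 4.35 CPM. EUE control replicate 1 lay nearer to the epiline libraries than to EUE control replicate 2.

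ERC37546, the one single ERC ID, had a mean of 38.3 CPM. It was at 46.9 and 37.2 CPM in the PEG control, 29.9 and 27.1 CPM in PEG-1, and 33.4 and 32.6 CPM in PEG-2. In the EUE control it was at 45.0, 55.3 and 46.2 CPM, and in the EUE epiline at 40.3, 40.5 and 25.8 CPM. EUE epiline replicate 3 was far below the other libraries of its group. The differences were -0.55 ± 0.18 (standard error) for PEG-1, -0.34 ± 0.17 for PEG-2 and -0.48 ± 0.23 for the EUE epiline.

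ERF88942-ERC51389, at a mean of 47.0 CPM, was likewise far lower in replicate 3 than in the other EUE epiline libraries, with EUE epiline levels of 57.1, 53.5 and 37.2 CPM against 64.1, 59.5 and 58.9 CPM in the control. In the PEG experiment it was at 53.1 and 40.7 CPM in the control, 34.4 and 30.6 CPM in PEG-1, and 39.8 and 34.7 CPM in PEG-2. Its difference was -0.51 ± 0.21 (standard error) for PEG-1, while -0.32 ± 0.21 for PEG-2 and -0.32 ± 0.19 for the EUE epiline were close to the limit.

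ERF61501 and ERF88687-ERC61317 were the 2 IDs nearest the limit on the inside. ERF61501 was at 7.55 and 6.92 CPM in the PEG control, 4.14 and 6.17 CPM in PEG-1, and 5.33 and 5.85 CPM in PEG-2. In the EUE control it was at 8.50, 9.78 and 8.10 CPM, and in the EUE epiline at 7.65, 6.62 and 6.84 CPM, a log2 difference of -0.3005. Its PEG-1 libraries differed more from each other than PEG-1 did from PEG-2, and the PEG-1 difference was -0.47 ± 0.27 (standard error). It met the rule in 6 of the 12 sets with a library left out, the fewest of the 9, and only the limits could exclude it there. ERF88687-ERC61317 was at 13.2 and 14.9 CPM in the PEG control, 11.5 and 10.1 CPM in PEG-1, and 10.8 and 11.8 CPM in PEG-2, a log2 difference of -0.301 in PEG-2. In the EUE control it was at 8.50, 10.2 and 8.29 CPM, and in the EUE epiline at 7.65, 5.32 and 7.23 CPM. Just outside, with every library in order, were ERC48026, whose smallest difference was -0.275 in PEG-1, and ERF74579-ERC44923, with -0.255 in PEG-1. The step across the limit was thus smaller than the spread between replicates. A further 6 IDs met every condition but the minimum level, the highest of them ERF64750 at 1.48 CPM.

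**Figure D3:**
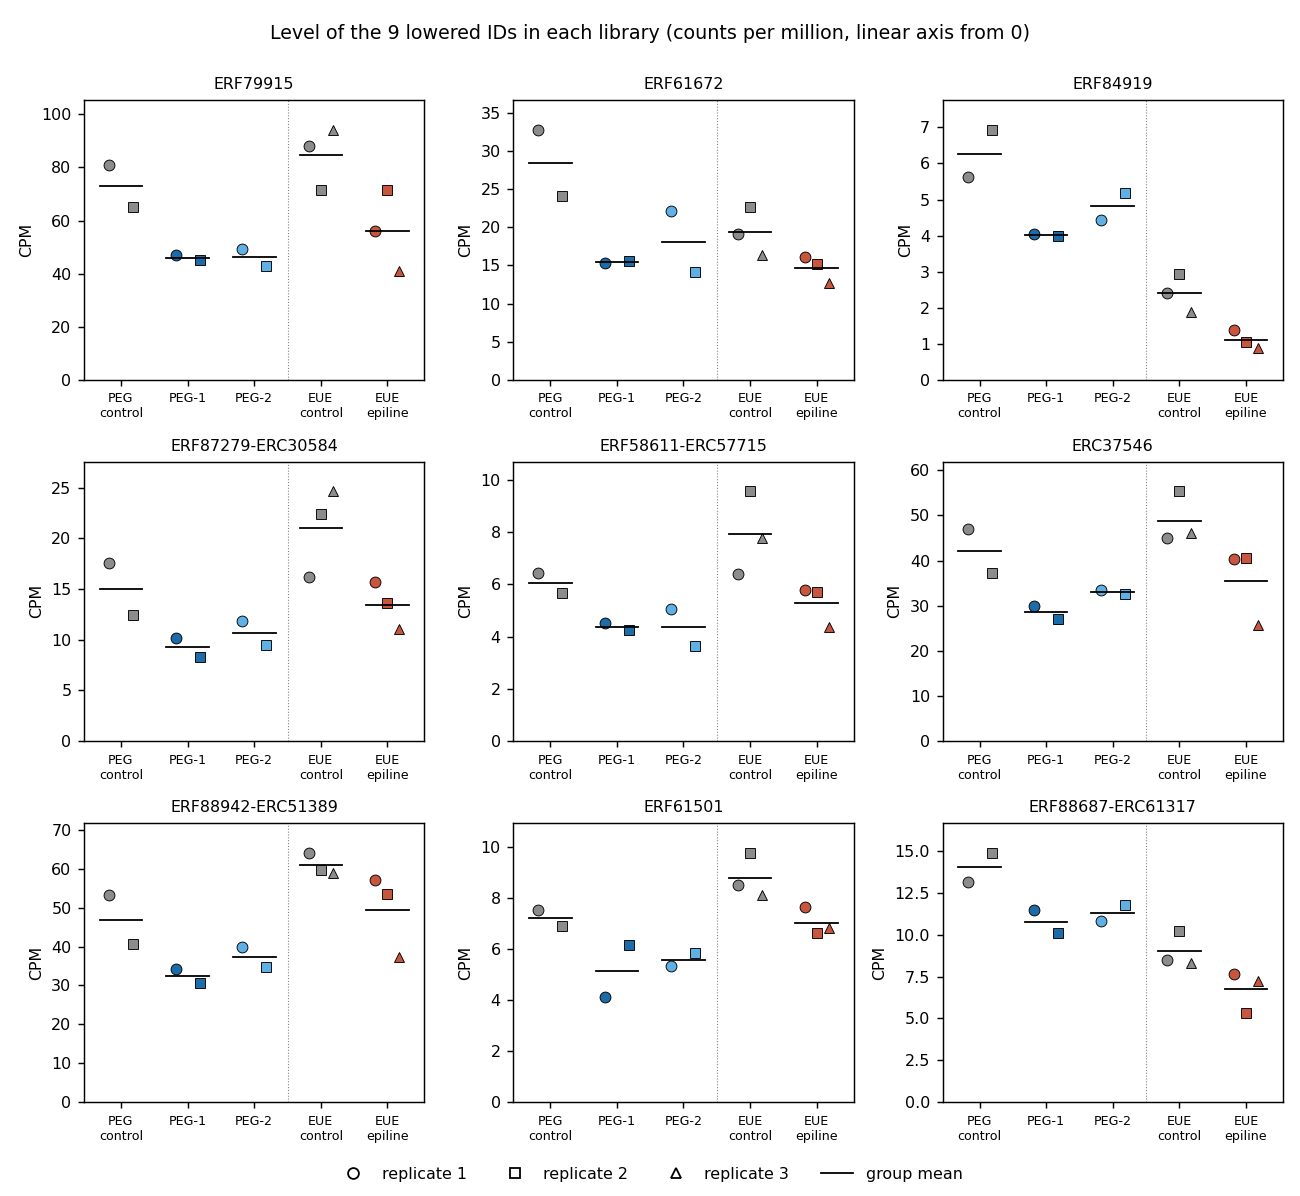
Level of each of the 9 IDs in the 12 libraries in CPM, with a symbol shape for each replicate number and the group mean as a line; each axis starts at 0. Every selected library lies below every control library of its experiment, as the rule required, but the nearest ones are often close, as for ERF79915 in replicate 2 of the EUE groups, at 71.4 and 71.6 CPM.

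The counting error of the libraries nearest each other is given as exact 95% Poisson intervals on read pairs (counts divided by 2), which cover counting error only. The rule used these same libraries, so the intervals describe the precision of the chosen values and test nothing. In the EUE experiment the interval of the highest selected library overlapped that of the lowest control library for 9 of the 9 IDs, and in the PEG experiment for 8 of the 9. The exception was ERF79915, with 49.5 CPM (46.4 to 52.7) in PEG-2 replicate 1 and 65.0 CPM (61.5 to 68.8) in PEG control replicate 2. The narrowest gap was that of the same ID in the EUE experiment, 71.4 CPM (67.8 to 75.2) against 71.6 CPM (67.8 to 75.6). The widest in the EUE experiment belonged to ERF84919, 1.38 CPM (0.902 to 2.02) against 1.87 CPM (1.34 to 2.55).

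In the contrasts used to choose the IDs, edgeR made no call among them. Of 36410 IDs tested, edgeR's quasi-likelihood test with Benjamini-Hochberg adjustment called 0 of the 9 in any of the 3 lines, and it called 0% of all IDs as lower in each. At an unadjusted p under 0.05, 7 of the 9 were lower for PEG-1, 2 for PEG-2 and 7 for the EUE epiline, where 1.72%, 0.849% and 0.634% of all IDs were. Since the contrasts chose the IDs, nothing is read from these counts. DESeq2 called 0 of the 9 in either PEG line, against 0.0357% and 0.00549% of all IDs called as lower, and 1 in the EUE epiline, against 0.0275%. That one was ERF84919 (DESeq2 adjusted p = 0.00693), for which edgeR gave a log2 value of -1.18 ± 0.25 (standard error) and an adjusted p of 0.273. Blocking on the replicate number, edgeR again called 0 of the 9 in any line, while 4 IDs (0.011%) were called as lower in the EUE epiline.

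Within a group, the 9 IDs were often high or low in the same library. In the EUE epiline, replicate 1 was the highest library of its group for 7 of the 9 and replicate 3 the lowest for 7 of the 9. Over all 23802 IDs, replicate 1 was the highest for 38.9% and replicate 3 the lowest for 35.9%. In the PEG control, replicate 1 was the higher library for 7 of the 9, against 54.6% of all IDs. The 431 raised IDs deviated the other way within the same groups. Their median deviation from the group mean was -0.65 in EUE epiline replicate 1 and 0.55 in replicate 3, where the lowered IDs had medians of 0.19 and -0.25. In EUE control replicate 2 the raised IDs stood at -0.35 and the lowered IDs at 0.18. The 2 medians had opposite signs in every library but EUE epiline replicate 2. Deviations from a group mean balance each other, exactly so in groups of 2 libraries, so the libraries are not independent counts. Whether the replicates' shift has a part in the lowered list was not tested.

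**Figure D4:**
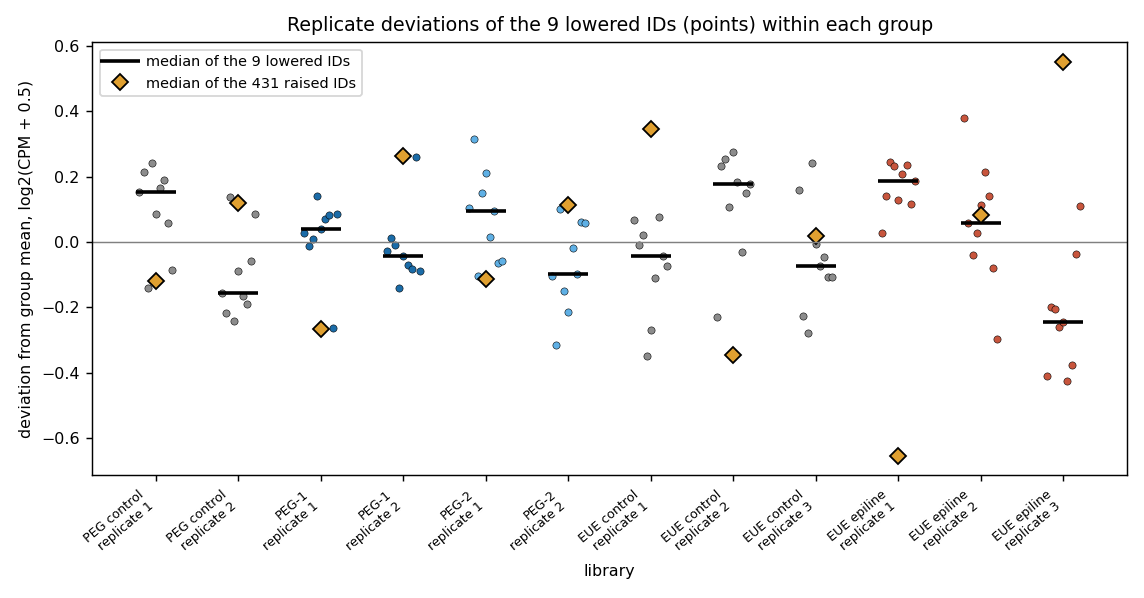
Deviation of each of the 9 IDs (points) from its group mean in each library on the log2(CPM + 0.5) scale, with their median (bar) and the median of the 431 raised IDs (diamond). In EUE epiline replicates 1 and 3 the bar and the diamond lie on opposite sides of 0, at 0.19 and -0.65 and at -0.25 and 0.55.

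Libraries of the EUE experiment with the same number deviated together, so the differences were also taken within numbers. All 9 IDs were lower in the epiline library than in the control library of the same number for each of the 3 numbers, which the rule already implies. The size differed between the numbers. The median difference was -0.16 for number 1, -0.56 for number 2 and -0.77 for number 3, against 0.05, 0.01 and 0.04 over all 23802 IDs. ERF79915 was at -0.65, -0.0039 and -1.18, and ERF87279-ERC30584 at -0.04, -0.70 and -1.12. For ERF84919 the 3 differences were -0.63, -1.15 and -0.78. In PEG-1 the medians were -0.64 for number 1 and -0.52 for number 2, and in PEG-2 they were -0.47 and -0.37.

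The rule set no direction between the 2 unselected lines, although their libraries entered its minimum level and its order, and control line and experiment cannot be told apart. ERF84919 was higher in the PEG control, with 6.27 ± 0.919 CPM (SD, n = 2), than in the EUE control, with 2.41 ± 0.530 CPM (SD, n = 3). It was the only one of the 9 that edgeR called, with a log2 value of 1.52 ± 0.26 (standard error) and an adjusted p of 0.0108, where 2.94% of all IDs were called and 15.9% had an unadjusted p under 0.05. Both PEG control libraries lay above all 3 EUE control libraries. With group means of 2.41 and 1.10 CPM in the EUE experiment, it reached the minimum of 2 CPM through its PEG libraries, so its difference between the controls is a description and nothing is read from the call. Its edgeR adjusted p was 0.136 without PEG control replicate 2, which ended the call, and over all alternatives it ran from 1.29e-05 (DESeq2) to that value.

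ERF61672 averaged 28.4 ± 6.08 CPM (SD, n = 2) among the PEG controls and 19.4 ± 3.17 CPM (SD, n = 3) among the EUE controls, a log2 difference of 0.67 with a 95% interval of 0.22 to 1.13 (edgeR adjusted p = 0.128). ERF88687-ERC61317 averaged 14.0 ± 1.22 CPM (SD, n = 2) and 9.0 ± 1.06 CPM (SD, n = 3), a log2 difference of 0.77 with an interval of 0.30 to 1.24 (edgeR adjusted p = 0.0944). DESeq2 called both, with adjusted p of 0.0385 and 0.0246. Counting ERF84919, which met the minimum level through its PEG libraries, it called 3 of the 9, and 6.67% of the 36410 tested IDs. The tested IDs include some under the minimum of 2 CPM that all 9 had to reach. The block fit called the same 3, but it called 15.7% of all IDs, and the numbers do not pair libraries across experiments. The other 6 IDs had negative differences, from -0.38 in ERF87279-ERC30584 to -0.10 in ERC37546, none of them called. The 2 control groups did not overlap for 5 of the 9, 3 higher and 2 lower in the PEG control, where 29.9% of the 23802 IDs did not overlap. The direction between the control lines was not the same for all 9.

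**Figure D5:**
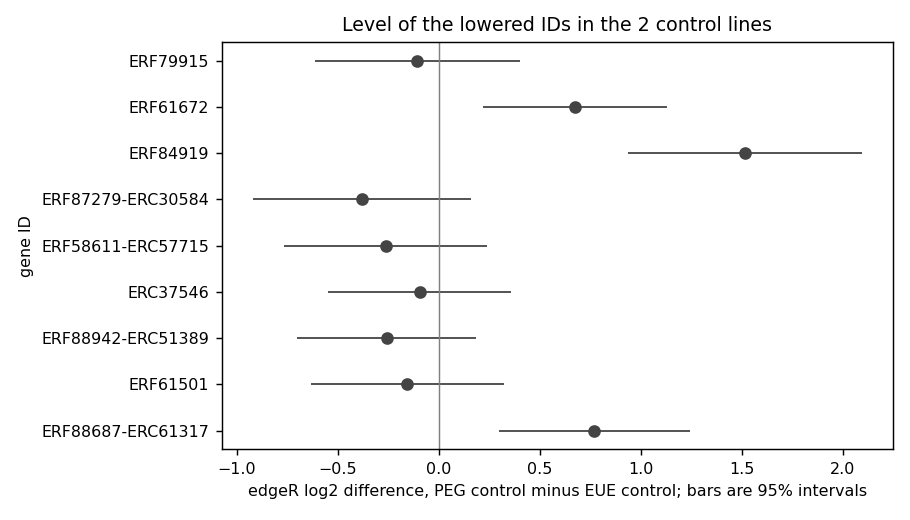
edgeR log2 difference of the PEG control from the EUE control for the 9 IDs, with 95% intervals. The interval lies above 0 for ERF84919, ERF61672 and ERF88687-ERC61317 and includes 0 for the other 6; after adjustment over all IDs edgeR called ERF84919 only, an ID that met the minimum level through its PEG libraries.

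The values of PEG-2 against PEG-1 are descriptions too, since the rule used the difference of each line from their shared control. edgeR called 0 of the 9 and 0% of all IDs, an unadjusted p under 0.05 was found for 1.62% of all IDs and 0 of the 9, and DESeq2 called 0 of the 9 and 0.00275% of all. The 9 differences had a median of 0.23 on the log2 scale against 0.01 over all tested IDs, and all 9 were positive, that is higher in PEG-2, although 3 turned negative without PEG-2 replicate 1. On the log2(CPM + 0.5) scale ERF58611-ERC57715 had the opposite sign, with -0.42 in PEG-1 and -0.45 in PEG-2 against the control. ERC37546 had a difference of 0.25 with a 95% interval of -0.25 to 0.74, and ERF61672 one of 0.25 with an interval of -0.26 to 0.76 (edgeR adjusted p = 1 for both). The value of ERF61672 was -0.05 without PEG-2 replicate 1. Both intervals include 0, which does not show that the lines have the same level.

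The sizes in the 2 experiments were set side by side as the EUE epiline effect minus the mean effect of the PEG lines. The rule required both effects to be negative and past its limit, so these values describe the chosen IDs and test nothing about them. edgeR called 0 of the 9 and 0% of all IDs, an unadjusted p under 0.05 was found for 0.92% of all IDs and 0 of the 9, and DESeq2 called 0 of the 9 and 0.00549% of all. ERF84919 had the largest value, -0.63 with a 95% interval of -1.41 to 0.15, lower in the EUE epiline. ERF61672 was at 0.34 with an interval of -0.26 to 0.94. ERF58611-ERC57715 was at -0.14, from -0.79 to 0.51, and ERF88942-ERC51389 at 0.09, from -0.49 to 0.66. The edgeR adjusted p was 1.00 for each of these 4.

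The 9 IDs spanned abundances from 3.39 to 62.7 CPM with a median of 14.5 CPM, where the median of the 23802 IDs was 10.2 CPM. None had a count of 0 in any library, their lowest count being 36, and together they took between 0.0147% and 0.0266% of a library's counts. Of the 9, 4 were joined IDs, 4 single ERF IDs and 1 a single ERC ID, where 56.6%, 24.4% and 19.0% of the 23802 were. Their median SD between replicates on the log2(CPM + 0.5) scale was below that of the 23802 IDs in each of the 5 groups, and a rule that asks for groups without overlap favours a low spread. It was 0.22 against 0.24 in the PEG control, 0.10 against 0.14 in PEG-1 and 0.14 against 0.17 in PEG-2. The EUE control had 0.20 against 0.28, and the EUE epiline 0.25 against 0.29. For the 431 raised IDs the SD in the EUE epiline was 0.65.

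The IDs nearest in number were also looked at, since neighbouring numbers may belong to neighbouring genes, which the file does not say. For each ERF and each ERC number of the 9, the 5 nearest of the 23802 IDs on each side were taken, 130 neighbours in 13 searches. None of the 130 was itself one of the 9. Of these neighbours 24, or 18.5%, had negative differences in all 3 lines, and 17.5% of the 23802 IDs did. A difference of -0.3 or lower in each line was found for 3 of the 130, and for 1.07% of the 23802 IDs. Neighbours with negative differences in all 3 lines were most frequent around ERC57715 in the joined ID ERF58611-ERC57715, with 5 of 10. Around ERF84919 and both numbers of ERF88942-ERC51389 there were 0 such neighbours.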

How the data were processed

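Polysomal RNA from leaf 4 of canola was sequenced in 12 libraries. The authors deposited 1 table of read counts per gene ID, and all 12 of its sample columns were matched to the labels, with 0 left over. GSNAP and SAMtools are listed in the submitters' processing notes. The sources used here do not give the genome, annotation, counting program or strand setting. None of the deposited counts was odd, as if both mates of a pair were counted, so counting intervals used counts divided by 2.

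The 9 IDs and all choices were made with earlier results of these data known. Differences with standard errors from the replicate spread are on the log2(CPM + 0.5) scale. Tests used edgeR 4.0.16 (R 4.3.3, TMM scaling, filterByExpr with a minimum count of 10, quasi-likelihood test), in 1 fit over the 12 libraries with a mean per group, on 36410 IDs, with Benjamini-Hochberg adjustment and a threshold of 0.05. Intervals are 95% and use the fit's t quantile. DESeq2 1.42.0 was an alternative, as were other scalings, filters, pseudocounts, level and difference minimums, a replicate block, each experiment alone, and each library left out. The edgeR script was tested on simulated data. As the IDs have no gene names, no pathway or marker list was used, and all 9 IDs are described. In the comparisons of the control lines, of PEG-2 with PEG-1 and of the effects, the IDs named are the 2 with the smallest p in each direction, and for the control lines also others, chosen after their values were seen.

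EUE libraries of the same number deviated together over the 17455 IDs averaging 5 CPM or more (r = 0.62, 0.74 and 0.61). For different numbers r was -0.05 or lower. Deviations from a group mean balance each other, so these negative values are partly forced and are not separate evidence. From the same-number values the numbers were taken as pairs, but only for the within-number differences and the replicate block. The main fit and the standard errors of the line differences did not use the pairs. The common coefficient of variation in edgeR was 32.2% in the main fit and 18.7% with the block. The labels give no meaning for a number. PEG groups have only 2 numbers each. Between them the same-number r ran from 0.53 to 0.69, and with 2 libraries per group the different-number r is its exact negative.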

Additional observations from a re-analysis of the deposited data

How the results depend on the processing

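No difference of the 9 IDs from their control changed sign under any alternative. The required order of the libraries fixed this beforehand for all but the other scalings. The number of lowered IDs was 20 with TMM scaling, 19 with DESeq2 size factors, 25 with no minimum difference, 0 with a minimum of 1, 104 in the replicate block and 6 to 72 with a library left out; the cause was not tested. DESeq2 called 145 IDs in PEG-1, 17 in PEG-2, 382 in the EUE epiline, 2428 between the controls, 1 between PEG-2 and PEG-1 and 2 for the difference of effects. Among the 9 it called 1 in the EUE epiline and 3 between the controls. The replicate block called 1 in PEG-1, 69 in the EUE epiline (2 in a block fit of the EUE libraries alone, chosen after seeing the data) and 5709 between the controls, 3 of them among the 9, and changed no other call. Each experiment alone gave 1 call in PEG-1 and 1 in PEG-2, and no filter on low counts gave 27 in the EUE epiline.

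With a library left out, calls ran from 0 to 205 in the EUE epiline (205 without its replicate 1), and from 300 to 1067 between the controls (300 without PEG control replicate 2, 662 without EUE control replicate 1, 701 without EUE control replicate 3), of which 0 to 1 were among the 9. Between the controls, ERC37546 ran from -0.23 to 0.0093 and ERF79915 from -0.25 to 0.025. The value of ERF61672 between PEG-2 and PEG-1 ran from -0.046 to 0.46, and that of ERF88942-ERC51389 for the difference of effects from -0.074 to 0.23 (-0.036 without EUE epiline replicate 1). With 2 or 3 libraries per group, and counts as low as 36 in ERF84919, small differences were not resolved.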
